A study of Mus musculus with 8 samples.

Results

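The 10 genes described here encode the killing machinery of natural killer (NK) cells and the receptors and transcription factor that mark these cells. They are the granule genes Gzma, Gzmb, Gzmk, Prf1 and Nkg7, the receptor genes Klra7, Klrd1, Klrk1 and Ncr1, and the transcription factor gene Eomes. All 10 were found by symbol or accession among the non-control probes of the array, by 12 probes, and all 10 passed the filter on dim probes that left 22217 genes to test. They were followed in the livers of ICR scid mice aged 8 weeks, on 8 two-colour arrays, 2 for each of 4 comparisons. Each array held 2 RNA pools, and the 2 arrays of a comparison held separate pools with the dyes reversed. Untreated males were set against untreated females, with 5 mice in every pool. At day 3 after treatment, 11 males given Adeno-Cux2, an adenovirus carrying the transcription factor gene Cux2, were set against 11 males given the control virus Adeno-CMV, in pools of 5 and 6 for each virus. At day 5, 12 males given Adeno-Cux2 in pools of 6 and 6 were set against 13 given Adeno-CMV in pools of 6 and 7, and 8 females given Adeno-Cux2 in pools of 4 and 4 against 7 given Adeno-CMV in pools of 4 and 3. All groups carried the scid mutation, which leaves mice without mature T and B cells but with NK cells and myeloid cells, and both treated arms had received an adenovirus, so no comparison set virus against no virus.

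NK cells kill infected or transformed cells by releasing granules. Perforin opens the target membrane, and granzymes are serine proteases that enter through it and start cell death. Release is set by the balance of activating receptors, such as NKG2D and NKp46, and inhibitory receptors that read MHC class I, such as many of the Ly49 and NKG2 proteins. The liver is rich in NK cells and related group 1 innate lymphoid cells, which line its sinusoids. In RNA of whole liver, a change in the number of such cells and a change in RNA per cell cannot be told apart.

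The targeted gene was checked first. Cux2 log2 ratios by its brighter probe were -1.74 and -2.02 for untreated males over females, 0.39 and 0.58 in males at day 3, 0.61 and 0.60 in males at day 5, and -0.58 and -0.65 in females at day 5. Cux2 was thus higher in the male pools labelled Adeno-Cux2 and lower in the female pools labelled Adeno-Cux2, and the other Cux2 probe had the same signs. Whether these probes read the transgene is not stated, and every direction below, in females above all, is that of the labels. One slide carried the arrays of untreated mice and of males at day 5, and a second slide those of males at day 3 and of females. On the 8 arrays, 68.3% to 76.7% of gene spots in green and 71.7% to 80.1% in red were well above background, and the 2 arrays of a comparison correlated across genes with r of 0.61 for untreated mice, 0.89 for males at day 3, 0.87 for males at day 5 and 0.68 for females at day 5. Genes are not independent replicates. The pools are the replicates, so errors measure the spread between pools and not between mice. Each error comes from a single fit of all 8 arrays and not from the 2 of a comparison alone.

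The promoters of 4 members are printed here, from 250 bases before to 50 after the transcription start. They are as RefSeq gives them on GRCm38.p6, 5′ to 3′ along the gene. Capitals mark 3 short motifs of factor families known to act in NK cells, on either strand: TCACACC for T-box factors, the family of Eomes, TGTGGT for RUNX factors and AGGAAGT for ETS factors. No 2 marked matches overlap in these promoters. The Gzma promoter is chr13:113100932-113101231, minus strand, that of Gzmb is chr14:56262285-56262584, minus strand, that of Prf1 is chr10:61297586-61297885, plus strand, and that of Ncr1, by the first of its listed starts, is chr7:4337465-4337764, plus strand.
Gzma: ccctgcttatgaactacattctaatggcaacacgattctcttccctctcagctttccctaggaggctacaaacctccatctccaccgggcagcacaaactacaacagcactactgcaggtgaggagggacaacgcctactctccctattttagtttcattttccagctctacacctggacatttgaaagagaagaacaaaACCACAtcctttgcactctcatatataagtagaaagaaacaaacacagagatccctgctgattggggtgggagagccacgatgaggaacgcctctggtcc
Gzmb: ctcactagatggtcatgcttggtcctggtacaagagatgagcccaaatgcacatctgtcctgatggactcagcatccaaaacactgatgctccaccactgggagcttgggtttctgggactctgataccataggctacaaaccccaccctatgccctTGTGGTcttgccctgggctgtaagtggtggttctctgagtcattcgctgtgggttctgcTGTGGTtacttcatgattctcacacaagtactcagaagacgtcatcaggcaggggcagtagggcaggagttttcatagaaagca
Prf1: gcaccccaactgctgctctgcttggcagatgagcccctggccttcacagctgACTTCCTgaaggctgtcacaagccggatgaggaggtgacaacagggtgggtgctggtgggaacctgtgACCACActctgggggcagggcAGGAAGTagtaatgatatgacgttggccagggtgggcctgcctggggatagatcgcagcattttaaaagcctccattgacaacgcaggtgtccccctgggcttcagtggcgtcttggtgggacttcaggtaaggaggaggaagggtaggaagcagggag
Ncr1: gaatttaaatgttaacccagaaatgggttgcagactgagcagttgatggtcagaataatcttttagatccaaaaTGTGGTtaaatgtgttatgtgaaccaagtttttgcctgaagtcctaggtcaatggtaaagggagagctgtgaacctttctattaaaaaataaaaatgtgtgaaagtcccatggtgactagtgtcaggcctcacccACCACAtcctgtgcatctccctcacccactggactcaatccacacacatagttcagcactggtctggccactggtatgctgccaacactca
Of the 10 members, 9 had an entry, with 11 promoters in all. The RUNX letters stood in the promoters of 6 of these 9 genes, the 4 printed ones among them. The T-box letters stood in those of 2 (Gzmk and Nkg7) and the ETS letters in that of 1 (Prf1), while Klra7 and Eomes held no motif of the 3. Among all 32851 promoters in the table, 16.8% held the RUNX letters, 3.98% the T-box letters and 9.35% the ETS letters. A match describes the letters in this window and not a bound site.

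In untreated mice 3 of the 10 members were lower in males than in females, and none was higher. Gzma, Gzmb and Klra7 passed the limma test at an adjusted p under 0.05, and 5 members had an unadjusted p under 0.05. The share of all genes at the unadjusted threshold was not taken. Over all genes tested, 6.12% were called lower in males and 4.92% higher. Among pools labelled Adeno-Cux2 against Adeno-CMV, 9 of 10 members were higher in males at day 3, 8 of 10 in males at day 5 and 6 of 10 in females at day 5, and none was lower in any of the 3. The matching shares of all genes called higher were 23.7%, 13.9% and 12.8%, and of all genes called lower 20.3%, 4.95% and 6.3%. The median log2 ratio of the 10 members was 0.92 in males at day 3, 0.86 in males at day 5 and 0.36 in females at day 5, beside medians over all genes of -0.002, 0.009 and 0.005. In untreated males over females it was -0.20, beside -0.007 over all genes. Every member had a log2 ratio above 0 on all 6 arrays of the treated comparisons, where 49.3% to 53.7% of all genes were above 0. Males at day 3 had the broadest change of the 4 comparisons: 53.9% of their called genes were higher, and 68.5% when arrays were centred on the median in place of loess.

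**Figure D1:**
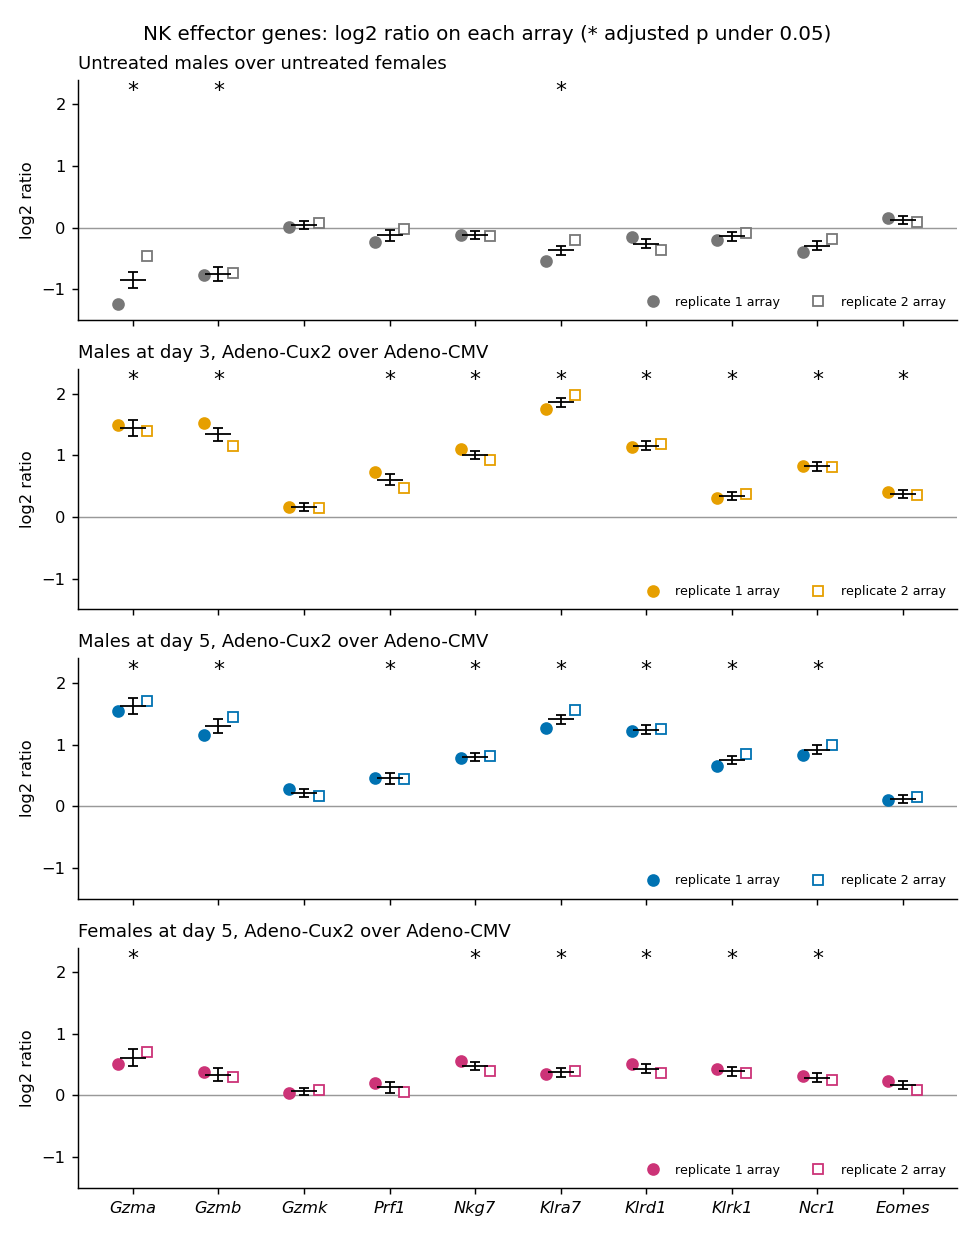
Log2 ratio of each of the 10 NK effector genes (x axis) on each array, in 4 panels by comparison: filled circles are replicate 1, open squares replicate 2, and black bars the limma estimate with its standard error. All treated points lie above 0, from 0.04 for Gzmk in females to 1.97 for Klra7 in males at day 3, and Gzma has the lowest untreated point at -1.24.

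Gzma encodes granzyme A, a protease of cytotoxic granules that cuts after basic residues. The files place its probe at chr13:114216656-114216715 on the minus strand of mm8. Levels here are normalised log2 intensities of 1 pool each, and probes of different genes are not compared with each other. Gzma stood at 7.18 and 8.03 in the 2 pools of untreated males, against 8.42 and 8.49 in the 2 pools of untreated females. Both female pools lay above both male pools, and the male pools lay farther apart than the female pools, with the lower value in replicate 1. The log2 ratio was -0.85 ± 0.14 (SE), a level 1.8-fold lower in males, with a limma adjusted p of 0.0128. This SE, like those below, comes from the fit of all 8 arrays, and the 2 untreated arrays gave -1.24 and -0.47. Without the untreated replicate 1 array the ratio was -0.51 and was not called. In that fit fewer of all genes were called in untreated mice, which bears on the members below as well. The Gzma call was also lost without background subtraction (limma adjusted p = 0.0573) and with the software's log ratios (0.0755).

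After treatment Gzma was higher in pools labelled Adeno-Cux2 in all 3 comparisons, and no Adeno-Cux2 pool reached down to its Adeno-CMV partners. Males at day 3 had 9.68 and 9.34 in Adeno-Cux2 pools, against 8.19 and 7.94 in Adeno-CMV pools, and males at day 5 had 9.34 and 9.49 against 7.79 and 7.78. Females at day 5 had 8.87 and 9.03 in Adeno-Cux2 pools, against 8.36 and 8.32 in Adeno-CMV pools. The fold was 2.72 in males at day 3 (log2 1.44 ± 0.14, limma adjusted p = 0.000266), 3.09 in males at day 5 (1.63 ± 0.14, adjusted p = 0.000428) and 1.53 in females at day 5 (0.61 ± 0.14, adjusted p = 0.0237). At day 5 Gzma had the largest ratio of the 10 members in males, above 99.3% of all genes. In females its ratio was the largest by the labels, and it would be the lowest, at -0.61, with the female labels turned round. The female call was lost without either female array, at adjusted p of 0.229 and 0.141.

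Gzmb encodes granzyme B, the protease that cuts caspases and other substrates after aspartate. Its probe lies at chr14:55213150-55213209 on the minus strand of mm8. Untreated males had 7.76 and 7.94, against 8.53 and 8.67 in untreated females. The groups did not overlap, and Gzmb was lower in males by -0.75 ± 0.11 on the log2 scale (1.68-fold, limma adjusted p = 0.00949), with both arrays near the same value at -0.77 and -0.73. Without the untreated replicate 1 array the ratio was -0.70 and was not called. Without background subtraction it was -0.37, also not called (limma adjusted p = 0.053). In Adeno-Cux2 pools, males at day 3 had 9.35 and 9.18, against 7.82 and 8.03 in Adeno-CMV pools. Males at day 5 had 8.96 and 8.999 in Adeno-Cux2 pools, against 7.79 and 7.55 in Adeno-CMV pools. Gzmb was thus 2.53-fold higher at day 3 (log2 1.34 ± 0.11, adjusted p = 0.000154) and 2.47-fold higher at day 5 (1.31 ± 0.11, adjusted p = 0.000445), with the groups apart at both days. Females at day 5 had 8.998 and 9.12 in Adeno-Cux2 pools, against 8.61 and 8.83 in Adeno-CMV pools. That ratio, 0.34 ± 0.11, did not pass the test (adjusted p = 0.0824).

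Prf1 encodes perforin, the pore-forming protein of the granule. Its probe lies at chr10:60699137-60699196 on the plus strand of mm8. Prf1 was higher in males labelled Adeno-Cux2 at both days: 7.29 and 7.07 against 6.56 and 6.60 in Adeno-CMV pools at day 3, and 6.90 and 6.79 against 6.43 and 6.34 at day 5. The log2 ratios were 0.60 ± 0.09 (limma adjusted p = 0.00201) and 0.45 ± 0.09 (adjusted p = 0.0154), or 1.52-fold and 1.37-fold. Signal over background was low, at 21 and 29 in the male Adeno-CMV pools at day 5, and the size of these ratios depended on the setting. Over 20 alternative settings the log2 ratio ranged from 0.17 to 1.27 at day 3 and from 0.11 to 1.03 at day 5. The day 5 call was lost without either male day 5 array, at adjusted p of 0.198 and 0.243, and with median centring at 0.127. Female pools overlapped, with 6.80 and 6.92 under Adeno-Cux2 and 6.60 and 6.86 under Adeno-CMV (log2 0.13 ± 0.09, adjusted p = 0.384). Untreated males had 6.15 and 6.28 and untreated females 6.39 and 6.29, a ratio of -0.13 ± 0.09 with an adjusted p of 0.408.

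Nkg7 encodes a membrane protein of cytotoxic granules that takes part in their release. It was read by 2 probes, at chr7:43306032-43306091 and chr7:43305698-43305757 on the plus strand of mm8. By the brighter probe, Adeno-Cux2 pools had 9.09 and 8.85 in males at day 3 against 8.00 and 7.93 in Adeno-CMV pools, and 8.04 and 8.11 in males at day 5 against 7.26 and 7.30. Female Adeno-Cux2 pools had 8.07 and 8.39, against 7.51 and 7.99 in Adeno-CMV pools. All 3 treated ratios passed the limma test, at 1.01 ± 0.07 (adjusted p = 7.75e-05), 0.80 ± 0.07 (adjusted p = 0.000481) and 0.48 ± 0.07 (adjusted p = 0.00453). The dimmer probe gave 0.84, 0.66 and 0.44 for the same 3 comparisons. In untreated mice the ratio was -0.12 ± 0.07, which did not pass (adjusted p = 0.293). The female call was lost without female replicate 1, at an adjusted p of 0.0956.

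Gzmk encodes granzyme K, a trypsin-like granzyme, and its probe at chr13:114292770-114292829 on the minus strand of mm8 was dim. It was well above background in 5 of 16 pools. The 2 Adeno-Cux2 pools were above background and the 2 Adeno-CMV pools were not in males at both days. Normalised levels were 6.38 and 6.25 against 6.21 and 6.10 at day 3, and 6.30 and 6.25 against 6.03 and 6.08 at day 5. The log2 ratios of 0.16 ± 0.06 at day 3 and 0.22 ± 0.06 at day 5 did not pass the limma test (adjusted p = 0.0895 and 0.0603). Over 19 alternative settings they passed in 3 and 4, and ranged from 0.04 to 1.98 at day 3 and 0.06 to 2.53 at day 5. The dim side gives only a bound on the level there. In untreated mice no pool of either sex was well above background.

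**Figure D2:**
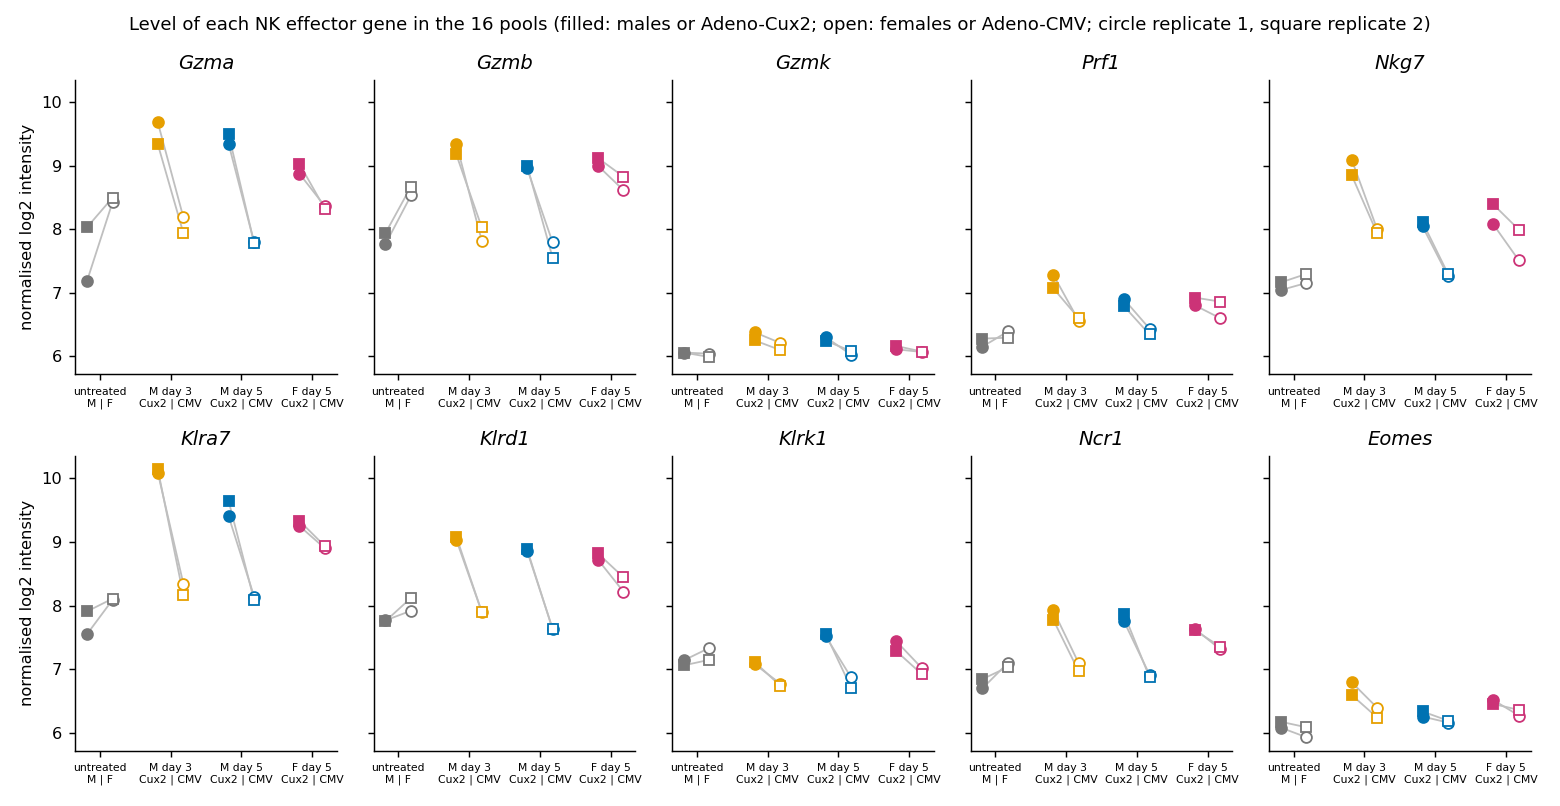
Normalised log2 intensity (y axis) of each of the 10 NK effector genes in the 16 pools, a panel per gene, with filled points for males or Adeno-Cux2 pools left of open points for females or Adeno-CMV pools; lines join the 2 pools of an array, circles being replicate 1 and squares replicate 2. Klra7 has the widest treated gap, with 10.09 and 10.14 in Adeno-Cux2 pools against 8.35 and 8.17 in Adeno-CMV pools of males at day 3, and Gzmk stays between 5.99 and 6.38.

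Klra7 encodes Ly49G, an inhibitory receptor of the Ly49 family that binds MHC class I on other cells. Its probe spans chr6:130184472-130184625 on the minus strand of mm8, and Ly49 genes are near-identical copies in a cluster, so a probe may read more than 1 of them. Untreated males had 7.55 and 7.91, against 8.09 and 8.11 in untreated females, and the log2 ratio was -0.37 ± 0.07 (limma adjusted p = 0.0259). That call was lost without the untreated replicate 1 array (-0.30, adjusted p = 0.261), and with either male day 5 array left out (adjusted p = 0.0705). Males at day 3 had 10.09 and 10.14 in Adeno-Cux2 pools, against 8.35 and 8.17 in Adeno-CMV pools. Males at day 5 had 9.40 and 9.64 in Adeno-Cux2 pools, against 8.14 and 8.08 in Adeno-CMV pools, and females at day 5 had 9.25 and 9.33 against 8.90 and 8.93. Adeno-Cux2 pools stood above Adeno-CMV pools without overlap each time. Klra7 was 3.63-fold higher in males at day 3 (log2 1.86 ± 0.07, adjusted p = 2.09e-05), above 99.1% of all genes, 2.66-fold higher in males at day 5 (1.41 ± 0.07, adjusted p = 0.000101) and 1.3-fold higher in females at day 5 (0.38 ± 0.07, adjusted p = 0.0143). Without female replicate 1 the female ratio was 0.25 with an adjusted p of 0.259.

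Klrd1 encodes CD94, the partner that NKG2 chains need to form a receptor for a nonclassical MHC class I molecule. Its probe lies at chr6:129564066-129564125 on the plus strand of mm8. Levels in males at day 3 were 9.03 and 9.08 in Adeno-Cux2 pools, against 7.90 and 7.90 in Adeno-CMV pools, and males at day 5 had 8.86 and 8.88 against 7.63 and 7.63. Females at day 5 had 8.72 and 8.82, against 8.22 and 8.45 in Adeno-CMV pools. The pools of a group lay close together in males, and Klrd1 was 2.23-fold higher at day 3 (log2 1.16 ± 0.07, limma adjusted p = 5.92e-05) and 2.36-fold higher at day 5 (1.24 ± 0.07, adjusted p = 0.00013). In females it was 1.35-fold higher (0.44 ± 0.07, adjusted p = 0.00804), a call lost without female replicate 1 (adjusted p = 0.137) or replicate 2 (0.0623). Untreated males had 7.77 and 7.75 and untreated females 7.92 and 8.12, and the ratio of -0.26 ± 0.07 did not pass the test (adjusted p = 0.0713).

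Klrk1 encodes NKG2D, the activating receptor for stress-induced ligands. It was read by 2 probes, at chr6:129578157-129578446 and chr6:129577539-129577598 on the minus strand of mm8, and they differed. By the brighter probe, males at day 3 had 7.08 and 7.11 in Adeno-Cux2 pools, against 6.77 and 6.74 in Adeno-CMV pools, and males at day 5 had 7.52 and 7.56 against 6.87 and 6.71. Females at day 5 had 7.44 and 7.28, against 7.01 and 6.92 in Adeno-CMV pools. The log2 ratio was 0.34 ± 0.07 in males at day 3 (limma adjusted p = 0.00727), 0.75 ± 0.07 in males at day 5 (adjusted p = 0.000628) and 0.39 ± 0.07 in females at day 5 (adjusted p = 0.00973). The day 3 call was lost without either male day 3 array, at ratios of 0.33 and 0.35. The female call was lost without female replicate 1, at a ratio of 0.30. By the dimmer probe only the ratio of males at day 5 passed, at 0.69 ± 0.08 (adjusted p = 0.00182), beside 0.17 ± 0.08 in males at day 3 (adjusted p = 0.158) and 0.24 ± 0.08 in females at day 5 (adjusted p = 0.1), these p adjusted over all probes. Both probes thus had their highest ratio in males at day 5.

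Ncr1 encodes NKp46, an activating receptor that in mice marks NK cells and related innate lymphoid cells. Its probe lies at chr7:3947661-3947720 on the plus strand of mm8. Males at day 3 had 7.92 and 7.78 in Adeno-Cux2 pools, against 7.09 and 6.96 in Adeno-CMV pools, and males at day 5 had 7.75 and 7.87 against 6.91 and 6.87. Females at day 5 had 7.63 and 7.61, against 7.31 and 7.35 in Adeno-CMV pools. Ncr1 was 1.77-fold higher in males at day 3 (log2 0.82 ± 0.07, limma adjusted p = 0.000215), 1.88-fold higher in males at day 5 (0.91 ± 0.07, adjusted p = 0.00037) and 1.22-fold higher in females at day 5 (0.29 ± 0.07, adjusted p = 0.0376). Pools of the 2 viruses did not overlap in any of the 3. The female call was the least firm of the 6 in females: it was lost in 9 of 20 alternative settings, with an adjusted p of 0.435 without female replicate 1. Untreated males had 6.70 and 6.84 and untreated females 7.10 and 7.03, with a ratio of -0.29 ± 0.07 just short of the threshold (adjusted p = 0.0519). This untreated ratio passed in 5 of 20 alternative settings.

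Eomes encodes the T-box factor that conventional NK cells need to mature, and in mouse liver it separates them from resident group 1 innate lymphoid cells. Its probe at chr9:118333866-118333925 on the plus strand of mm8 was well above background in 9 of 16 pools. Males at day 3 had 6.79 and 6.59 in Adeno-Cux2 pools, against 6.39 and 6.24 in Adeno-CMV pools, and Eomes was 1.3-fold higher there (log2 0.38 ± 0.07, limma adjusted p = 0.00348). Without either male day 3 array the adjusted p was 0.051 or 0.0582. Males at day 5 had 6.25 and 6.33, against 6.16 and 6.19 in Adeno-CMV pools, neither of which was well above background, and the ratio did not pass (0.12 ± 0.07, adjusted p = 0.276). Females at day 5 had 6.51 and 6.45 against 6.27 and 6.36, with a ratio of 0.17 ± 0.07 that did not pass (adjusted p = 0.129). Near background a small ratio limits what can be said of this gene.

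Whether the response differed between sexes and between days was tested as a difference of ratios. For females minus males at day 5 the difference was below 0 for 9 of 10 members, with a median of -0.49, where 46.6% of all genes were above 0. An unadjusted p under 0.05 was found for 8 of 10, and the share of all genes at that threshold was not taken. After adjustment over all genes only Klra7 was called, at -1.04 ± 0.10 (limma adjusted p = 0.0323). Very few genes passed this test: 0.036% of all genes were called higher and 0.171% lower. Klrd1 followed at -0.80 ± 0.10 (adjusted p = 0.0542), Gzmb at -0.97 ± 0.16 (0.0768), Ncr1 at -0.62 ± 0.10 (0.0839) and Gzma at -1.02 ± 0.19 (0.113). As Cux2 goes against the female labels, the difference was also taken with the female ratios turned round, an alternative chosen after seeing the data. All 10 members had ratios above 0 in both sexes, so the turned difference was below 0 for all 10 by construction. Its sign is thus no test of the labels or of a sex difference. The median was -1.24, and 8 of 10 were called lower, where 19.1% of all genes were called lower and 10.2% higher. The turned difference was -1.79 ± 0.10 for Klra7 (limma adjusted p = 5.64e-05), and Gzmk and Eomes were not called. By the labels these differences are between ratios of the same sign, and turned between ratios of opposite sign, so their size depends on the female labels. The 2 sexes lay on different slides, so slide and sex cannot be told apart. The Klra7 call by the labels was lost when either male day 5 array, female replicate 2 or either male day 3 array was left out, and with 3 other settings.

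The levels behind the day 5 ratios are given for Gzmb and Klra7, with the pools named by their labels. In pools labelled Adeno-Cux2, Gzmb stood at 8.998 and 9.12 in females and 8.96 and 8.999 in males. In Adeno-CMV pools it stood at 8.61 and 8.83 in females and 7.79 and 7.55 in males. Klra7 likewise stood at 9.25 and 9.33 in female and 9.40 and 9.64 in male Adeno-Cux2 pools, and at 8.90 and 8.93 in female and 8.14 and 8.08 in male Adeno-CMV pools. The gap between the mean levels of the sexes was smaller in Adeno-Cux2 pools than in Adeno-CMV pools for 7 of 10 members and not for Gzmk, Klrk1 and Eomes. For Klrk1 females minus males was -0.18 in Adeno-Cux2 and 0.18 in Adeno-CMV pools, and for Eomes 0.19 and 0.14. This is a description across slides, with no test, and the share of all genes with a smaller gap was not taken. The gaps of a gene under Adeno-Cux2 and Adeno-CMV differ by its difference of ratios above, so they are no separate result.

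For males at day 5 minus day 3, Klrk1 had the larger ratio at day 5, by 0.41 ± 0.10 (limma adjusted p = 0.0396), and Klra7 the smaller, by -0.45 ± 0.10 (adjusted p = 0.0369). The other 8 members were not called, with a median over all 10 of 0.01. Over all genes, 8.1% were called higher and 4.83% lower in this test. Day and slide cannot be told apart here. Both calls were lost when any 1 of the 4 male treated arrays was left out, with the software's own log ratios and without the dye term.

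**Figure D3:**
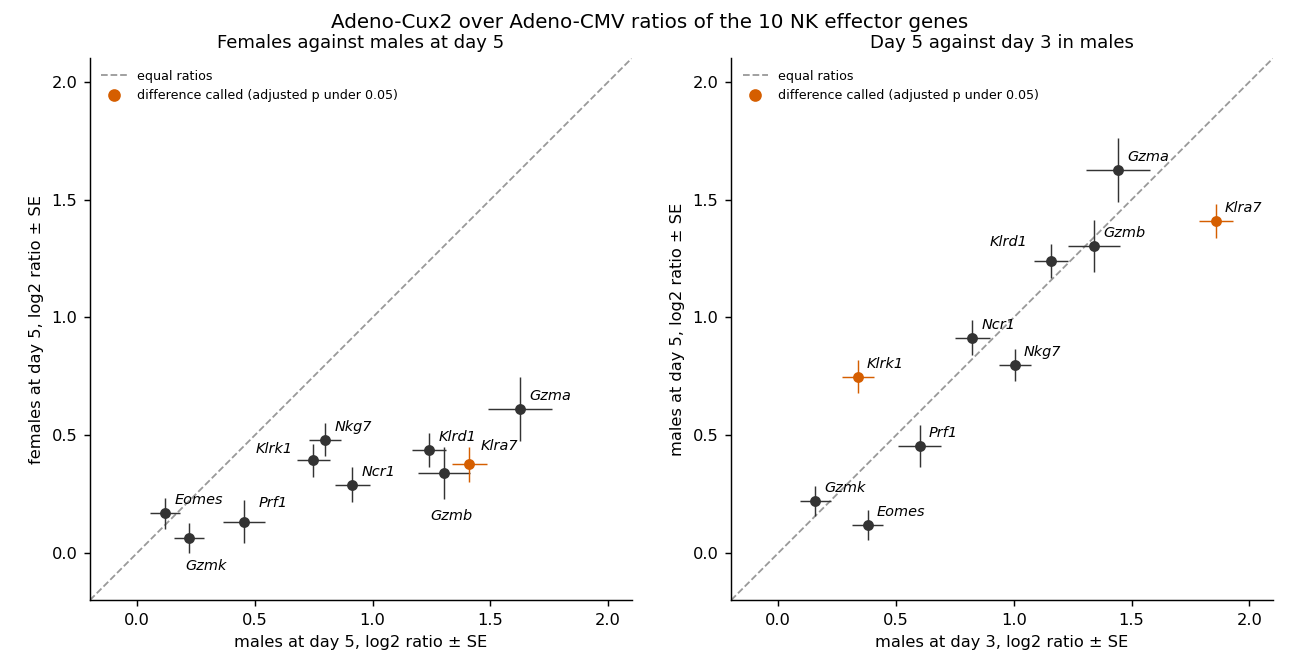
Log2 ratios of pools labelled Adeno-Cux2 over Adeno-CMV, with standard errors, for the 10 members: females against males at day 5 on the left, day 5 against day 3 in males on the right, with the dashed line at equal ratios. In the left panel 9 of 10 genes lie below the line and Klra7 is the called one; in the right panel Klrk1 lies above and Klra7 below the line, both called.

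How alike the members were was described by Pearson's r over the 8 arrays, which share slides and dyes, between each gene and the median of the other 9. Gzmb had 0.993, Klrd1 0.986, Gzma 0.974, Ncr1 0.969, Klra7 0.968, Nkg7 0.957 and Prf1 0.954. Klrk1 had 0.797, and the dim Gzmk and Eomes had 0.766 and 0.541. Among 16999 other genes well above background on every array, the 5 most like the members' median were Traf1 (0.995), an adaptor of TNF receptors, Gbp2b (0.993), an interferon-induced GTPase, Slc37a2 (0.993), a sugar phosphate transporter, Plgrkt (0.991), a plasminogen receptor, and Tbc1d1 (0.99), a regulator of Rab GTPases. Gbp2b, for example, had log2 ratios of -1.30 for untreated males over females, 1.61 and 1.26 in treated males at days 3 and 5, and 0.25 in females.

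Of 28 other NK receptor genes tested, 22 were higher in males at day 3, 21 in males at day 5 and 14 in females at day 5, and none was lower, with medians of 0.48, 0.64 and 0.26. Leaving out replicate 1 or replicate 2 of the comparison left 11 and 13, 8 and 8, and 9 and 5 called. The share of all genes called, in either direction, fell as well, to 26.8% and 24.4% in males at day 3, 5.24% and 4.69% in males at day 5 and 6.05% and 10% in females, and all counts below without an array stand against these shares. Among them were Klra3, Klra9 and Klra10, which encode Ly49 receptors. Klra9 had log2 ratios of 0.74 in males at day 3, 1.42 in males at day 5 and 0.51 in females at day 5, all called. Its difference between day 5 and day 3, 0.68 (limma adjusted p = 0.032), ran opposite to that of Klra7. The ratio of Klra10 was 0.24 on female replicate 1 and 1.80 on female replicate 2, and Klra3 0.18 and 1.48, so the 2 female arrays disagreed for these copies. Of 17 Klra genes other than Klra7, 14, 13 and 10 were called higher in the 3 comparisons.

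Of 15 other granule genes, 8 were higher and 2 lower in males at day 3, 7 higher in males at day 5 and 6 higher in females at day 5, with medians of 0.29, 0.25 and 0.27. At day 5, leaving out an array left 4 and 3 in males and 1 and 3 in females. Ctsc, cathepsin C, which activates granzymes by trimming them, had 0.81, 0.97 and 0.27, the last not called (adjusted p = 0.117). It was also lower in untreated males, at -1.14 (limma adjusted p = 0.00121). Srgn, the proteoglycan core of granules, had 1.24, 1.11 and 0.64, and Serpinb6b, a protease inhibitor, 1.65, 1.51 and 1.64, all called. Of the 3 other granzyme genes that could be tested none was called higher in the treated comparisons. Gzmd was lower in males at day 3 (-0.92, limma adjusted p = 0.000343), as was the granzyme B inhibitor gene Serpinb9 (-0.68, adjusted p = 0.00114), both named after their values were seen.

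Of 10 effector cytokine and death ligand genes, 8 were higher in males at each day and 2 in females, with medians of 0.48, 0.42 and 0.20. Without an array, 6 and 5 were called in males at day 3, 4 and 2 in males at day 5 and none in females. The chemokine genes Ccl3, Ccl4 and Ccl5, whose products NK cells and other leukocytes release to draw in further cells, had log2 ratios of 1.66, 1.75 and 1.07 in males at day 3 and 1.04, 1.30 and 1.25 in males at day 5. In females Ccl5 was called (0.45, limma adjusted p = 0.0363), and Ccl3 (0.34, adjusted p = 0.113) and Ccl4 (0.27, adjusted p = 0.194) were not.

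Of 15 signalling adaptors and kinases, 10 were higher and 2 lower in males at day 3, 10 higher and 1 lower in males at day 5 (7 and 6 higher without an array), and 8 higher and 1 lower in females. Tyrobp and Fcer1g, the adaptors through which Ly49 activators, NKp46 and Fc receptors signal, had 1.09 and 1.23 in males at day 3, 1.42 and 1.51 in males at day 5 and 0.83 and 1.04 in females, all called. Of 18 homing and residency genes, 11 were higher and 1 lower in males at day 3, 13 higher in males at day 5 and 8 higher in females, or 7 and 6 in males at day 5 without an array. Cxcl10, a chemokine that draws CXCR3-bearing NK and T cells, had 2.55 in males at day 3, 1.62 in males at day 5 and -0.35 in females, the last not called (limma adjusted p = 0.316). Itgam, an integrin of maturing NK cells and of myeloid cells, had 2.04, 1.36 and 0.85, all called.

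Of 10 other transcription factors of NK cells and group 1 innate lymphoid cells, 6 were higher and 1 lower in males at day 3, and 4 higher in each sex at day 5. Without an array, 3 and 3, 2 and 2, and 0 and 2 were called higher. Irf8 had 0.67, 1.02 and 0.46 and Prdm1 0.42, 0.95 and 0.71 in males at day 3, males at day 5 and females, all called. Of 13 cytokine receptor genes, 6 were higher and 2 lower in males at day 3, 5 and 1 in males at day 5, and 2 and 1 in females, the higher ones falling to 2 and 0 in males at day 5 and to 0 in females without an array. Il12rb1, a chain of the interleukin 12 receptor, was lower throughout, at -0.82, -0.91 and -0.35, and higher in untreated males, at 1.32. Its call in females was lost with either female array left out. Of 9 cytokine genes that act on NK cells, 2 were higher and 1 lower in males at day 3, 2 higher in males at day 5, and 1 higher and 1 lower in females, of which none was called at day 5 without an array. Il15, which NK cells need to survive, had 0.67 in males at day 5 (limma adjusted p = 0.00345), and values of 0.23 in males at day 3 and 0.28 in females that did not pass (0.0839 and 0.083). It was lower in untreated males, at -0.71 (adjusted p = 0.00595).

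Of 8 genes of MHC class I and its peptide loading, heavy chains such as H2-K1 together with B2m and the loading genes Tap1, Tap2 and Tapbp, 6 were higher in males at day 3, 5 in males at day 5 and 1 in females, with medians of 0.52, 0.39 and 0.05. Leaving out an array left 3 and 5 in males at day 3, 1 and 0 in males at day 5 and none in females. Only 3 of 9 genes for ligands of NKG2D and NKp46 partners could be tested. Ulbp1 was higher at 1.495, 0.47 and 0.44, and Raet1a was lower at -0.67, -2.01 and -1.61 in males at day 3, males at day 5 and females. Without an array, the higher call of Ulbp1 held in males at day 3 alone.

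Markers of other leukocytes were set beside these genes. Of 13 neutrophil markers, 11 were higher in each of the 3 treated comparisons, with medians of 1.36, 2.096 and 1.31, all above the members' medians. Their summed normalised intensity was 56420 to 65990 in Adeno-Cux2 pools and 14910 to 16240 in Adeno-CMV pools of males at day 3, 73910 to 79840 and 10550 to 13500 in males at day 5, and 114100 to 133000 and 42980 to 46360 in females at day 5. Such sums, here and below, weigh the brightest probes of a list most, so they can part from its median. They are no count of cells. S100a8 had log2 ratios of 1.60, 3.29 and 1.86. In untreated mice 5 of the 13 were lower in males and none was higher, with sums of 4990 to 5282 in males and 11240 to 11880 in females. Fewer of them were called lower with either untreated array left out. Of 18 macrophage and monocyte markers, 7 were higher and 7 lower in males at day 3, 13 were higher in males at day 5, and in females 12 were higher. Their sums were 161100 to 165900 in Adeno-Cux2 and 102000 to 110600 in Adeno-CMV pools of males at day 3, 179400 to 203500 and 95010 to 97060 in males at day 5, and 224300 to 239200 and 98280 to 112700 in females. Lyz1, a lysozyme gene, had 1.64 in males at day 3, 2.102 in males at day 5 and 1.73 in females, all called. Cd14, a coreceptor for lipopolysaccharide, had 2.80 and 1.73 in males, both called, and 0.38 in females (limma adjusted p = 0.117). Clec4f, a marker of Kupffer cells, had -2.23 and 0.99 in males, both called, and 0.39 in females (adjusted p = 0.0849). In untreated mice 7 macrophage markers were lower and 1 higher in males, with sums of 105200 to 114600 in males and 132800 to 140000 in females. With either untreated array left out, fewer of these markers were called lower. The part of neutrophils and macrophages in the members' ratios was not tested.

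T cell markers, which share several genes with NK cells, had medians nearer 0. Of 15 tested, 4 were higher and 2 lower in males at day 3, 3 higher in males at day 5 and 5 higher in females, with medians of 0.06, 0.12 and 0.05, and without an array 2 and 4, 1 and 1, and 1 and 2 were higher. The T cell receptor chain gene Cd3e was well above background in all 16 pools and had log2 ratios of -0.23 in males at day 3 (limma adjusted p = 0.0204, lower), -0.11 in males at day 5 and -0.09 in females, the last 2 not called. Cd3g had -0.16, 0.17 and 0.004, none called, and Cd3d 0.01, 0.53 and 0.34, called in males at day 5 alone. Thy1 and Tcf7, which NK cells and other innate lymphoid cells also express, were higher in all 3, with Tcf7 at 0.80, 0.88 and 0.61. Further genes of the list were higher in males at day 3 and in females, such as Cd8b1, named after its values were seen. Cd8b1 had 0.50 in males at day 3 (limma adjusted p = 0.00981), 0.45 in females (adjusted p = 0.0306) and 0.12 in males at day 5, not called. The summed level of the T cell list was 3627 to 3761 in Adeno-Cux2 and 2710 to 2929 in Adeno-CMV pools of males at day 3, 3217 to 3385 and 2804 to 2834 in males at day 5, 3685 to 3781 and 2875 to 2954 in females, and 3009 to 3215 in untreated males and 3178 to 3240 in untreated females. Of 11 B cell and plasma cell markers, none was higher and 2 were lower in males at day 3, 4 were higher in males at day 5, and 2 were higher and 1 lower in females. Of 10 mast cell and basophil markers, 4 were higher and 1 lower in males at day 3, 1 was higher in males at day 5 and 2 in females. Without an array 2 and 2 of these were higher and none lower in males at day 3, with 1 and 0 higher in males at day 5 and 2 and 1 in females. Of 10 dendritic cell markers, 4 were higher and 1 lower, 6 were higher, and 4 were higher and 1 lower in the same order. Without an array the higher calls at day 5 fell to 1 and 1 in each sex for B cell markers and to 2 and 2 in each sex for dendritic cell markers.

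**Figure D4:**
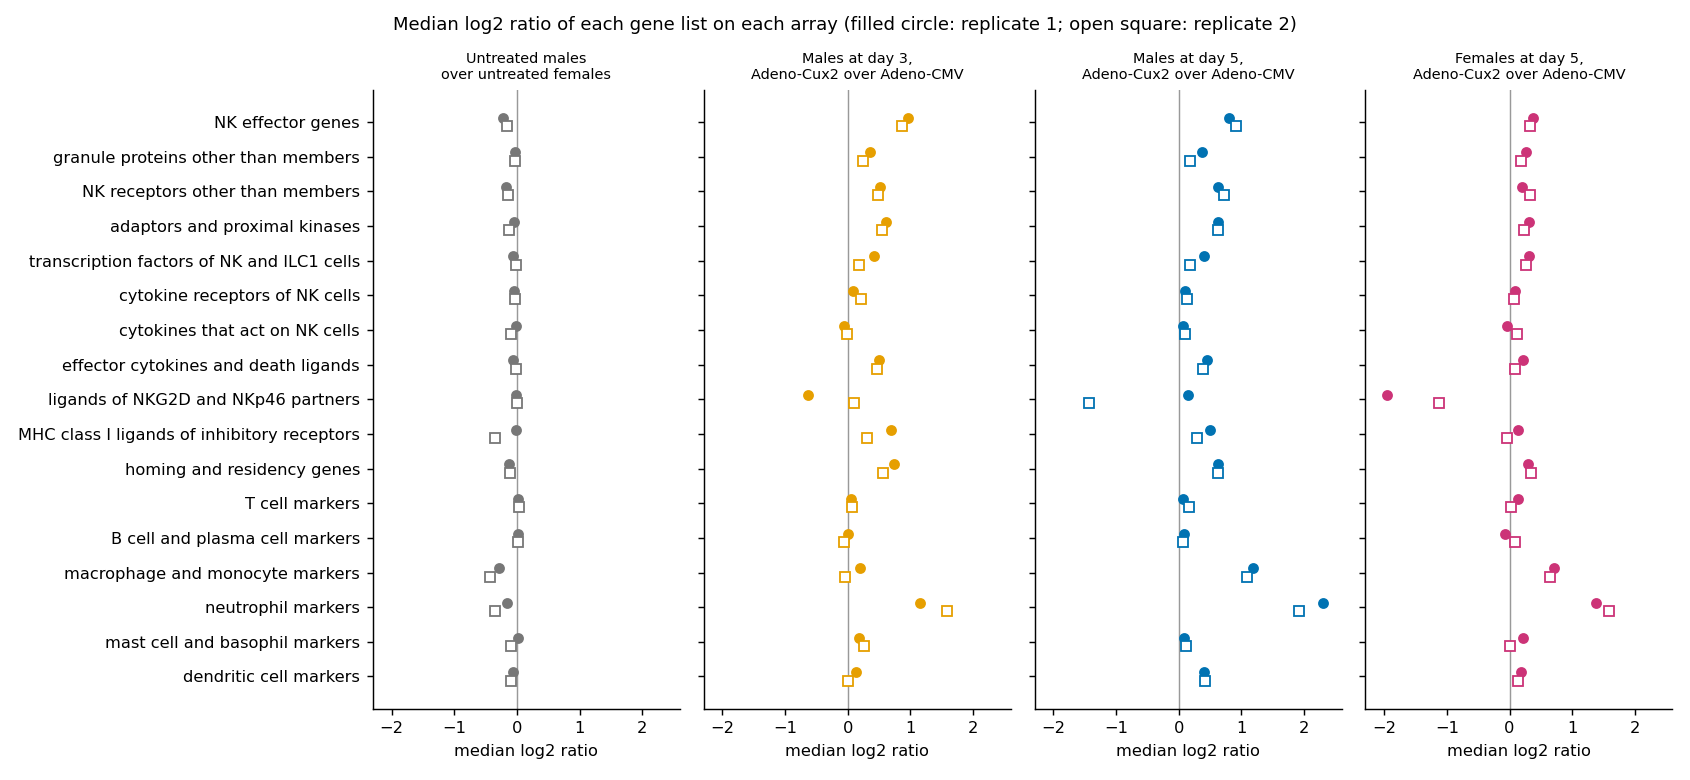
Median log2 ratio (x axis) of the 10 NK effector genes and of 16 other gene lists (y axis) on each array, in 4 panels by comparison, with filled circles for replicate 1 and open squares for replicate 2. The NK effector genes lie at 0.81 and 0.92 in males at day 5, between T cell markers at 0.07 and 0.16 and neutrophil markers at 2.31 and 1.92.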

How the data were processed

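Liver RNA pools were measured on Agilent Mouse Gene Expression 4x44k v1 arrays with 2 colours. The deposited intensity values are the median brightness of each spot and its local background in green and red, not normalised, and per the file headers came from Agilent Feature Extraction 9.5.3.1 (first slide) or 10.7.1.1 (second slide). The deposited log10 ratios of red over green are, per the file headers, what that software gave once it had removed background and balanced the dyes. The authors' deposited series matrix equals these log10 ratios turned to numerator over denominator, within 5e-06. The flags for spots well above background and saturated or outlier spots hold 0 or 1. Probe positions are on mm8, per the file headers.

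From the median intensities, normexp (offset 50) removed the local background, and a loess curve per array normalised the log2 ratios, in limma 3.58.1 (R 4.3.3; tables were read by data.table, release 1.17.8), with control and outlier spots at weight 0. Levels per pool come from these ratios after quantile scaling of mean intensity between arrays (Aquantile). The filter on dim probes asked for a signal well above background, in 1 channel or both, on each of the 2 arrays of some comparison, which 33335 of 41174 probes had. Names came from the RefSeq table on GRCm38.p6, by accession for 21854 kept probes, by symbol for 4582 and by synonym for 1836, while 5063 had no match and stand under the files' own name. Each of the 22217 genes was read by its brightest probe.

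One limma model across all genes and 8 arrays had a coefficient for each comparison and 1 for the dye, with 3 residual and 3.62 prior degrees of freedom. Replicate 1 carried the numerator in red and replicate 2 in green everywhere, so the dye term is also the replicate block. Tests were 2-sided, with Benjamini-Hochberg adjustment over all genes and a call at an adjusted p under 0.05. The median standard error was 0.0784 for a comparison. The number of arrays limits the precision. The procedure was tested on simulated data.

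The 10 members and the 16 gene lists were chosen with earlier results of these data known. All members were named, and from each list up to 3 called genes with the largest ratio in any comparison, plus Cd3d, Cd3e, Cd3g, Cux2 and the 5 genes most like the members' median. A gene that this rule names is not reported here. Counts of Klra genes and of other granzymes were added. Alternatives were other background settings, median centring, the software's log ratios, other filters, probe rules, dye terms and moderation, single slides, each array left out and, chosen after seeing the data, the female ratios turned round. The series text gives 11 untreated females where the sample labels give 10. The purpose stated for the arrays of treated females speaks of males, against their title, source and sex label.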

Additional observations from a re-analysis of the deposited data

Results flagged for a closer look

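The Klra7 response at day 5 differed between the sexes by the test of the difference itself: the log2 ratio of pools labelled Adeno-Cux2 over Adeno-CMV was 0.38 in females and 1.41 in males, a difference of -1.04 ± 0.10 (limma adjusted p = 0.0323). With the female ratios turned round, since Cux2 goes against the female labels, the difference would be -1.79 ± 0.10 (limma adjusted p = 5.64e-05). The sign of the turned difference was fixed in advance, as both ratios are above 0 by the labels. The Klra7 response in males differed between days in the same kind of test, at 1.41 on day 5 and 1.86 on day 3, a difference of -0.45 ± 0.10 (limma adjusted p = 0.0369). The Klrk1 response in males differed between days in the other direction, at 0.75 on day 5 and 0.34 on day 3, a difference of 0.41 ± 0.10 (limma adjusted p = 0.0396). In all 3 the arrays compared lay on different slides, so sex or day and slide cannot be told apart. All 3 calls were lost when either male day 5 array or either male day 3 array was left out. They were also lost with the software's log ratios and without the dye term. The call between sexes was lost too without female replicate 2 and without background subtraction.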

How the results depend on the processing

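The counts of members called varied little in treated males, from 7 to 10 at day 3 and from 7 to 9 at day 5 over 20 settings. In untreated mice, where 3 members were called lower, 0 were called without background subtraction, and 0 to 4 with an array left out. In females at day 5, where 6 were called, 2 were called with the software's log ratios and 0 to 6 with an array left out, the lowest without female replicate 1 (0) and female replicate 2 (3). For the female minus male response (1 called), 0 were called with no replicate block, without background subtraction or from the software's ratios, 2 with no filter and 2 with the mean over probes, 8 with the female ratios turned round (chosen after seeing the data), and 0 to 2 with an array left out. For males at day 5 minus day 3 (2 called), 1 was called with an offset of 16, with median centring and with an intensity trend, 0 from the software's ratios and with no replicate block, and 0 to 2 with an array left out. Of the values for single members under these settings, 731 kept direction and call, 44 lost the call, 14 gained it, and 3 uncalled values lost their sign: Gzmk in females was -0.12 with the software's ratios (0.065 as reported), Prf1 in untreated mice was 0.05 without untreated replicate 1 (-0.13 as reported), and Gzmk in untreated mice came to 0 with the software's ratios. No called value changed sign. The cause of these changes was not tested beyond the fewer arrays. Ratios shrink without background subtraction, where the members' median was 0.37 in males at day 5, and grow with the software's ratios, at 1.44. Same-numbered arrays deviated together only in part, with r of -0.10 to 0.30 between comparisons, not above 0.1 for every pair, and replicate number and dye cannot be told apart. Signal over background limits Gzmk and Eomes, and it was low for Prf1 as well.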

Other observations

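Other NK cell genes in untreated mice are given here as values. Fewer of all genes were called without untreated replicate 1, and more without replicate 2, than with both. Of 28 further NK receptor genes, none was higher and 2 were lower in males than in females, with a median log2 ratio of -0.16. Neither lower call held without untreated replicate 1. Of 15 adaptors and kinases 1 was higher and 5 were lower in males, among them Tyrobp (-0.40, limma adjusted p = 0.0378) and Fcer1g (-0.32, adjusted p = 0.038), and without replicate 1 none was called lower. Ccl5 was the one effector cytokine gene of 10 called, at -0.47 (adjusted p = 0.0458), a call lost without either untreated array. Among 8 genes of MHC class I and its peptide loading, the heavy chain genes H2-T23 (-0.37, adjusted p = 0.0187) and H2-Q7 (-0.35, adjusted p = 0.0242) were lower in males and none was higher, and without replicate 1 neither was called.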
